A study of Mus musculus with 6 samples.

Results

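Guanylate-binding proteins (GBPs) and immunity-related GTPases (IRGs) are 2 families of interferon-inducible GTPases of mouse cells. The 10 genes described here are Gbp2, Gbp3, Gbp4, Gbp5, Gbp6 and Gbp7 of the first family and Irgm1, Irgm2, Igtp and Iigp1 of the second. They were taken as every non-control probe whose gene name in the scanner files was one of these symbols, which gave 15 of 55681 probes and 10 of 34797 gene names on the array. Of the 15 probes, 14 passed the filter, which asks for 3 or more arrays well above background, and each of the 10 genes had at least 1 of these 14 tested probes.

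RNA came from aortic arteries of C57BL/6 mouse fetuses at E18.5 and was hybridised to 1-colour Cy3 Agilent arrays. Nod1 -/- dams mated with Nod1 +/- males received 500 µg of FK565 under the skin, and vessels were taken 6 h later from fetuses that the design text calls littermates. FK565 is a synthetic ligand of NOD1, a cytosolic sensor of peptides from the bacterial cell wall. The groups were 3 arrays of Nod1 +/- and 3 of Nod1 -/- fetuses. Every dam in both groups was Nod1 -/- and had received the ligand, and no fetus without ligand is among these samples, so each difference below is between genotypes under FK565. The labels do not tell if an array held a single fetus or several, and p-values therefore cover only the spread between these samples.

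GBPs and IRGs act inside infected cells. Interferons, above all interferon-gamma, switch on their genes in immune cells and in many other cells, including endothelium. GBPs gather on bacteria and on the vacuoles of microbes, where they help to open them and to engage the caspase-11 inflammasome, which senses lipopolysaccharide in the cytosol. Among IRGs, Iigp1 is an effector that coats parasite vacuoles, whereas Irgm1, Irgm2 and Igtp are regulators that keep such effectors inactive on the cell's own membranes.

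Values are log2 signal minus the array's 75th percentile of log2 signal, so 0 is the level of that percentile. This percentile lay at signals of 435 to 514, and 50.2% to 59.5% of spots per array were well above background. Means carry their SD (n = 3), and differences, always Nod1 +/- minus Nod1 -/-, carry their standard error (SE) and limma's adjusted p. Vessel markers were present in both genotypes: all 11 endothelial and all 10 smooth-muscle marker genes were tested, and smooth muscle alpha-actin (Acta2) lay between 8.77 and 8.82 on every array. The Nod1 probe lay at 3.38 ± 0.35 against 3.25 ± 0.09 (adjusted p = 0.648), which does not check the labels, because the deleted stretch of the gene was not given. In bulk vessel RNA, fewer cells of a type and less RNA per cell cannot be told apart.

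With 1 probe a gene, 5 of the 10 genes passed the threshold of 0.05, all higher in Nod1 +/- vessels, and the same test called 7.66% of all 21478 genes higher and 11% lower, 18.7% together. The 5 were Gbp2, Gbp3, Gbp4, Gbp6 and Gbp7, which makes 5 of 6 GBPs and 0 of 4 IRGs. The called Gbp6 (0.67) and Gbp7 (0.88) differed less than the uncalled Igtp (1.15), Irgm2 (1.04) and Iigp1 (0.97). This split therefore depends on the threshold and was not tested as a difference between the families. In 8 of the 10 genes every Nod1 +/- array lay above every Nod1 -/- array, against 16.3% of all genes. The median difference of the 10 genes was 1.01, or 1.54 over the GBPs and 1.01 over the IRGs, against -0.10 over all genes. Over probes, 5 of the 14 were called higher, where the background was 6.82%, and 11 of the 14 did not overlap between genotypes, where it was 16.2%. None of the 14 was called lower, and 15.9% of all kept probes were called in either direction. The number of called genes was 3 without the first or second replicate of either genotype, and 4 without replicate 3 of either.

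**Figure D1:**
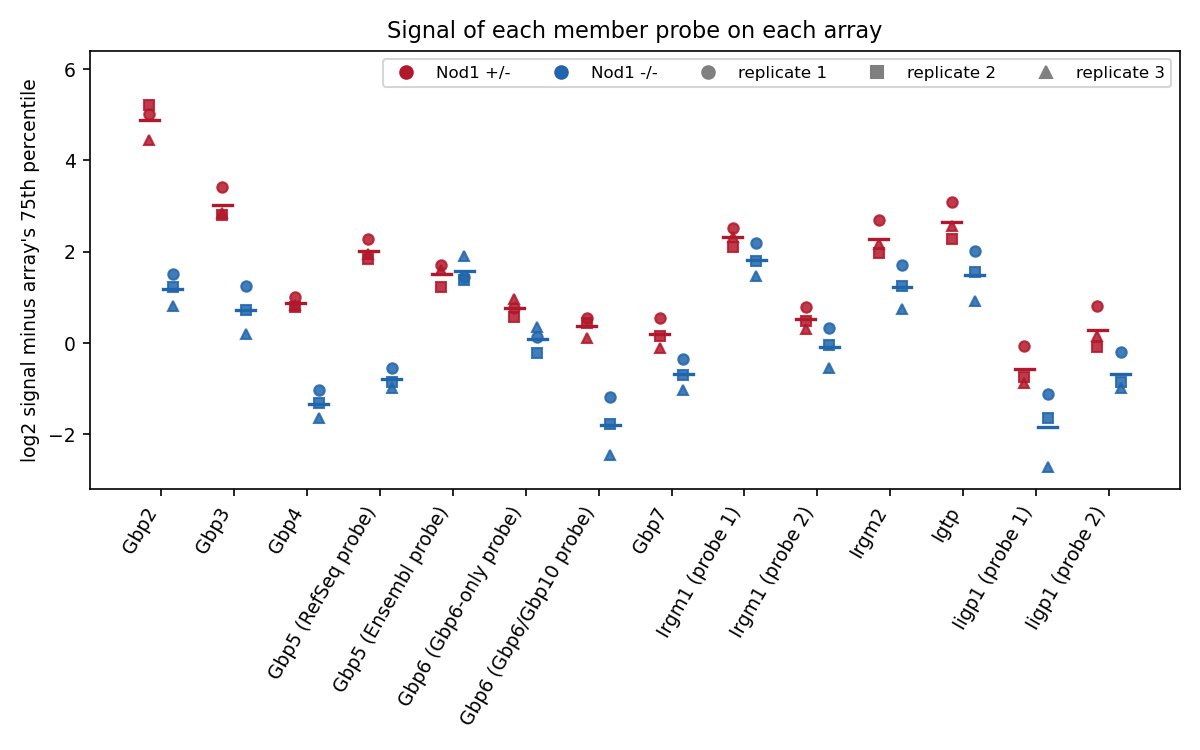
Relative log2 signal (log2 signal minus the array's 75th percentile) of the 14 tested probes, with a point for each array, red for Nod1 +/- and blue for Nod1 -/-, the replicate number as the marker shape and a bar at each group's mean. The Gbp2 values run from 4.45 to 5.21 in Nod1 +/- and from 0.82 to 1.51 in Nod1 -/-, while the groups overlap for Irgm1 and for the Ensembl probe of Gbp5.

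Promoters are shown for the genes in the RefSeq table that differed most in each family, because interferon-regulated genes commonly carry elements there. Gbp5 was ranked by the probe designed on its RefSeq transcript (2.81), not by the Ensembl probe that stands for it among genes (-0.07). They are the 250 bases before the start of the RefSeq gene (GRCm38.p6), written 5′ to 3′ along the gene's strand, with motif matches in capitals. The motifs searched on both strands were the core of the interferon-stimulated response element (ISRE), GAAANNGAAA, bound by interferon regulatory factors, the STAT site (GAS), TTCNNNGAA, and an NF-kB site, GGGANNTTCC. Overlapping ISRE matches were counted separately. The windows lie at chr3:142620413-142620662 for Gbp2, chr3:142559794-142560043 for the upstream start of Gbp3, chr3:142496684-142496933 for Gbp5, chr11:58199306-58199555 for Igtp and chr11:58214727-58214976 for Irgm2, all on the plus strand.
Gbp2 promoter: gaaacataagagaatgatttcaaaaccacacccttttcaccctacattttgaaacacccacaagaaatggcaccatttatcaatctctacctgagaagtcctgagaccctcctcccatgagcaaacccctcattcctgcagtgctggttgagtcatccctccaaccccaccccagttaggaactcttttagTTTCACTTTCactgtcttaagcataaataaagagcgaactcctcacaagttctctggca
Gbp3 promoter: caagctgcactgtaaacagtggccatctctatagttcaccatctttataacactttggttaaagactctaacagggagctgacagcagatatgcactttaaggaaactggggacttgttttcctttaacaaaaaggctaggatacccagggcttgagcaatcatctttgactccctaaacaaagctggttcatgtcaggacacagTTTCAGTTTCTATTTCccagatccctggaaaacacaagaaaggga
Gbp5 promoter: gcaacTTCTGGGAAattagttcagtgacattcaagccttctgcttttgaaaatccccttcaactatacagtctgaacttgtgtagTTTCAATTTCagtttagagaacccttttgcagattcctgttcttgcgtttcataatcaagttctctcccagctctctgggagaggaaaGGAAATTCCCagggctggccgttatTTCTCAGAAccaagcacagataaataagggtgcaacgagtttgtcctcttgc
Igtp promoter: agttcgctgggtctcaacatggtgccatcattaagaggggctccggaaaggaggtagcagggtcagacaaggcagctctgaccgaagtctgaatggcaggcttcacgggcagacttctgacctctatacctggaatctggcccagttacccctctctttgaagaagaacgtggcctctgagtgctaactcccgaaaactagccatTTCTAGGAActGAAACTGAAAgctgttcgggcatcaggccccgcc
Irgm2 promoter: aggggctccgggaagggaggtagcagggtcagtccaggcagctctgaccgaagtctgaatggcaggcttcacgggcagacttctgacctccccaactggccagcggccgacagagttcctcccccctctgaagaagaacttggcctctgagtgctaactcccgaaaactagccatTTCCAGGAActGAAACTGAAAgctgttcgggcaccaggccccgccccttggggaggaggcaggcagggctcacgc

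The table of promoters held 8 windows of 7 of the 10 genes, and Gbp4, Gbp6 and Iigp1 were not among them. An ISRE core stood in 7 of the 8 windows and in each of the 7 genes, compared with 2.98% of 32851 RefSeq promoter windows of the same length. Its first base lay 59 bases before the start of Gbp2, 45 and 39 before that of Gbp3, 165 before Gbp5, 53 before Gbp7, 30 and 24 before Irgm1, 34 before Igtp and 64 before Irgm2. The window of the downstream Gbp3 start held none of the motifs. GAS letters stood in the windows of Gbp5, Gbp7, Igtp and Irgm2, 4 of 8, against 7.02% of all windows. NF-kB letters stood only in that of Gbp5, 1 of 8 against 1.21%. The Igtp and Irgm2 windows share a run of 55 identical bases, and their ISRE cores lie in another, shorter shared run. Their GAS letters stand just before these cores in both windows. The pair does not stand for separate instances, although the ISRE and GAS counts above include both windows. A match describes these letters in this window and is no evidence of binding, and the windows of called and uncalled genes alike held the ISRE core.

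Gbp2, whose protein is recruited to vacuoles of bacteria and of Toxoplasma, differed most. Its probe (chr3:142300719-142300778, plus strand, mm9) read 5.02, 5.21 and 4.45 on Nod1 +/- replicates 1 to 3 and 1.51, 1.22 and 0.82 on Nod1 -/- replicates 1 to 3. All Nod1 +/- arrays were far above all Nod1 -/- arrays, with a gap wider than the spread within either group. The means were 4.89 ± 0.40 and 1.18 ± 0.35, a difference of 3.71 on the log2 scale (SE 0.26, 95% confidence interval 3.08 to 4.34) or 13.1-fold (adjusted p = 0.00111).

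Gbp3 encodes a close relative of Gbp2 in the same cluster on chromosome 3 (probe chr3:142236032-142236091, plus strand). It read 3.41, 2.80 and 2.85 in Nod1 +/- and 1.25, 0.73 and 0.20 in Nod1 -/- vessels. Again no arrays overlapped, and Nod1 -/- replicate 3 was the lowest. The difference was 2.29 (SE 0.30) or 4.90-fold (adjusted p = 0.00648).

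Gbp4 lies in the second GBP cluster, on chromosome 5 (probe chr5:105544852-105544911, minus strand). Its values were 1.0, 0.80 and 0.83 against -1.03, -1.31 and -1.64, so the Nod1 +/- arrays were tightly grouped and the Nod1 -/- arrays all lay below 0. The means were 0.88 ± 0.11 and -1.33 ± 0.31, which is a difference of 2.20 (SE 0.17) or 4.60-fold (adjusted p = 0.00147). Gbp2, Gbp3 and Gbp4 were called under all 19 alternative settings.

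**Figure D2:**
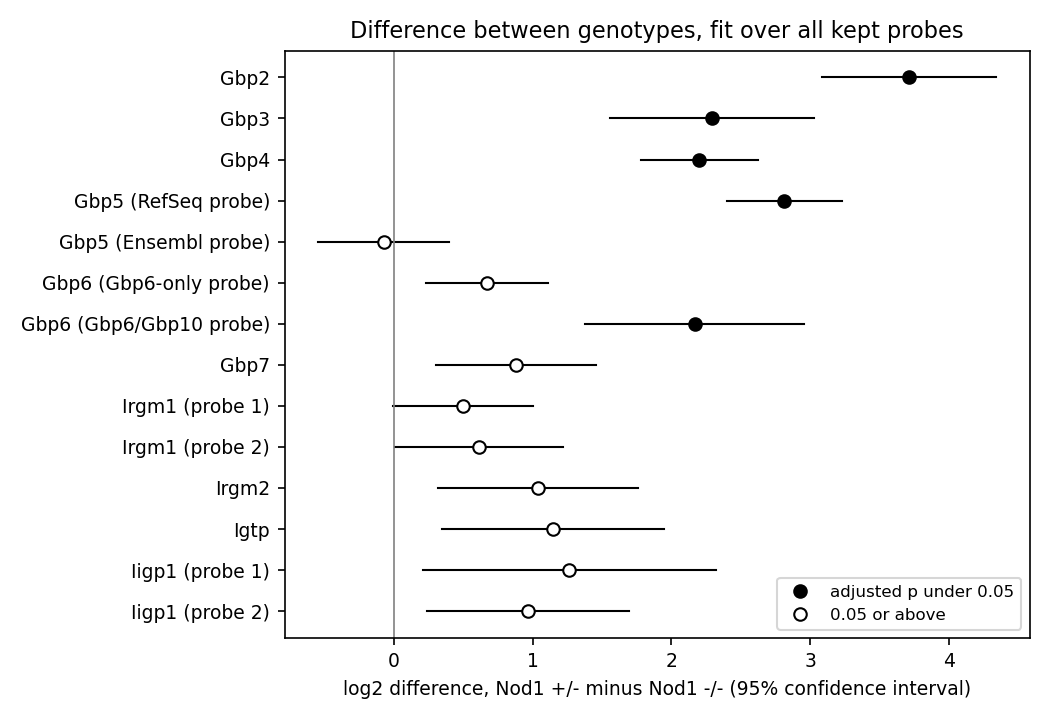
Difference in relative log2 signal, Nod1 +/- minus Nod1 -/-, for each of the 14 tested probes, with 95% confidence intervals from limma's fit over all kept probes. Filled points have an adjusted p under 0.05, and the intervals of Gbp2 (3.08 to 4.34) and of the Ensembl Gbp5 probe (-0.54 to 0.40) are the extremes.

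Gbp5, whose protein promotes inflammasome responses in macrophages, was read by a pair of probes that gave different answers. One was designed on an Ensembl transcript, the other on the RefSeq transcript (chr3:142184779-142184838, plus strand, mm9). Both list the same Ensembl transcripts in the scanner files, and only the second lists the RefSeq transcript.

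The RefSeq probe read 2.28, 1.83 and 1.95 in Nod1 +/- and -0.55, -0.85 and -0.98 in Nod1 -/- vessels. These groups were wide apart, at 2.02 ± 0.23 and -0.79 ± 0.22, a difference of 2.81 (SE 0.17) or 7.04-fold (95% confidence interval 5.27 to 9.39; adjusted p = 0.000916 over all kept probes). It was called under all 18 alternatives fitted over probes. The Ensembl probe read 1.70, 1.22 and 1.59 against 1.44, 1.39 and 1.90, and the groups overlapped. Its difference was -0.07 (95% confidence interval -0.54 to 0.40; adjusted p = 0.820 over probes).

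The Ensembl probe had the higher mean and therefore stood for Gbp5 among the genes (adjusted p = 0.813), which is why Gbp5 is not among the 5 called genes. The mean of the Ensembl and RefSeq probes gave 1.37 (adjusted p = 0.0033). For the Ensembl probe the sign turned, to 0.031 with median scaling and to 0.028 with array weights. It also turned to 0.068 without Nod1 +/- replicate 2 and to 0.088 without Nod1 -/- replicate 3. The place of either probe in the transcript is not given, since no exon annotation of mm9 was used.

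Gbp6 also had probes that differed in size of change. One listed Gbp6 transcripts alone (chr5:105700056-105700115), and the other (chr5:105702128-105702187, both minus strand) listed the RefSeq transcripts of Gbp6 and of its neighbour Gbp10, whose RNAs it cannot tell apart. The first 30 bases of each 60-base probe are shown because the choice of probe sets the size of the change.
Gbp6 probe: gaaatgtcaagttcaaaagaatgaactgtg
Gbp6 and Gbp10 probe: ggctctcttaaatggattttctacagttct

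The Gbp6 probe read 0.76, 0.56 and 0.95 in Nod1 +/- and 0.13, -0.21 and 0.35 in Nod1 -/- vessels, close but without overlap. The difference was 0.67 (SE 0.18) or 1.59-fold (adjusted p = 0.0487 over genes and 0.0542 over probes). The probe shared with Gbp10 read 0.56, 0.44 and 0.11 against -1.18, -1.77 and -2.45, which is 2.17 (SE 0.33) or 4.50-fold, with a 95% confidence interval of 2.60 to 7.77 (adjusted p = 0.0107 over probes). On both probes all Nod1 +/- arrays were above all Nod1 -/- arrays. The call of the Gbp6 gene ended without any single array other than Nod1 -/- replicate 3, with adjusted p of 0.118, 0.0711 and 0.102 without Nod1 +/- replicates 1, 2 and 3 and of 0.116 and 0.125 without Nod1 -/- replicates 1 and 2.

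Gbp7, on chromosome 3 between Gbp5 and Gbp3, encodes a GBP that has been linked to the assembly of the phagocyte oxidase. Its brighter probe (chr3:142209379-142209438, plus strand) read 0.55, 0.14 and -0.12 in Nod1 +/- and -0.35, -0.69 and -1.02 in Nod1 -/- vessels. The lowest Nod1 +/- array stood just above the highest Nod1 -/- array. The difference was 0.88 (SE 0.24) or 1.84-fold (adjusted p = 0.0496 over genes and 0.0545 over probes). This call held without Nod1 +/- replicate 3 (0.0484) and ended without any of the other arrays, with adjusted p of 0.0577 without Nod1 -/- replicate 1 and of 0.106 to 0.140 for the rest. A second Gbp7 probe was not well above background on any array and was not tested.

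The 4 IRGs differed in the same direction, by 0.50 to 1.15 on the log2 scale, and none passed the threshold. Igtp, which encodes the regulator Irgm3, read 3.09, 2.28 and 2.57 in Nod1 +/- and 2.01, 1.56 and 0.92 in Nod1 -/- vessels (chr11:58020927-58020986, plus strand). The groups did not overlap, but the Nod1 -/- arrays spanned almost as much as the gap between the means. The difference was 1.15 (SE 0.33) or 2.22-fold (adjusted p = 0.0591). This probe was spotted 10 times per array, and the spots of an array had an SD of 0.029 to 0.071, against SDs of 0.41 and 0.55 between arrays of a genotype, so spot noise was a small share of the spread.

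Irgm2, the neighbour of Igtp (chr11:58036093-58036152, plus strand), encodes a regulator found on the Golgi. It read 2.69, 1.97 and 2.16 in Nod1 +/- and 1.71, 1.25 and 0.74 in Nod1 -/- vessels. The groups were again separate, with a difference of 1.04 (SE 0.30) or 2.06-fold (adjusted p = 0.0582).

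Iigp1, the effector Irga6 on chromosome 18, read 0.80, -0.08 and 0.16 in Nod1 +/- and -0.19, -0.85 and -0.98 in Nod1 -/- vessels on its brighter probe. Nod1 +/- replicate 2 came closest to the Nod1 -/- arrays. The difference was 0.97 (SE 0.30) or 1.96-fold (adjusted p = 0.0732). A dimmer Iigp1 probe gave 1.26 (SE 0.44) or 2.40-fold (adjusted p = 0.100 over probes), likewise without overlap.

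Irgm1, the regulator that also takes part in autophagy, differed least of the 4 IRGs (chr11:48679069-48679128, minus strand). It read 2.52, 2.11 and 2.33 in Nod1 +/- and 2.18, 1.80 and 1.48 in Nod1 -/- vessels, and Nod1 -/- replicate 1 was above Nod1 +/- replicate 2. The difference was 0.50 (SE 0.21) or 1.41-fold (95% confidence interval on the log2 scale -0.01 to 1.01 over probes; adjusted p = 0.143). A second probe gave 0.62 (adjusted p = 0.144 over probes), also with overlap. The first interval leaves room for a difference as large as that of Gbp7 (0.88), so a missed threshold does not show that Irgm1 was equal.

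Within arrays, the genotype difference of Gbp2 exceeded that of Irgm1 by 3.21, of Irgm2 by 2.67, of Igtp by 2.56 and of Iigp1 by 2.74 on the log2 scale. This is a description with no test, since Gbp2 was taken as the gene that differed most. It concerns these 4 genes and not the IRG family, because Tgtp2 (3.30) and Ifi47 (2.51), IRGs outside the 10 genes, were called higher.

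Within a genotype the probes also ranked the arrays alike. The mean of the 10 genes was 2.16, 1.70 and 1.78 in the Nod1 +/- arrays, by replicate number, and 0.87, 0.49 and 0.28 in the Nod1 -/- arrays. Nod1 -/- replicate 3 was the lowest array of its genotype in 12 of 14 probes, or 85.7%, where 40.6% of all kept probes had it lowest. Nod1 -/- replicate 1 was the highest of its genotype in 12 of 14 probes, against 29.8%, and Nod1 +/- replicate 1 likewise in 12 of 14, against 23.8%. Over the 6 arrays, the correlation of each gene with the mean of the others was 0.78 to 0.998 for 9 genes and -0.21 for the Ensembl probe of Gbp5. Those coefficients describe 6 arrays that share the genotype difference.

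**Figure D3:**
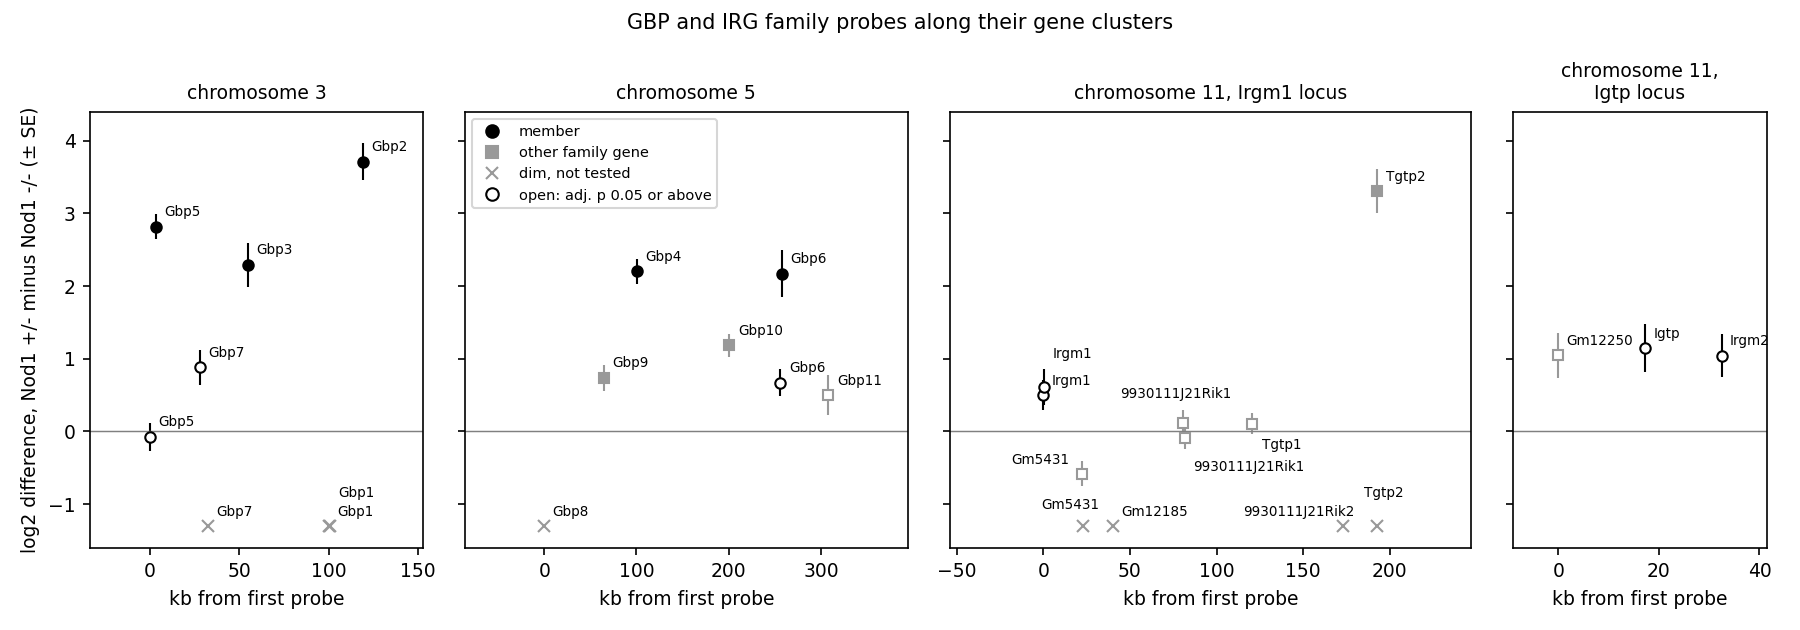
Genotype difference in relative log2 signal (± SE) of GBP and IRG probes against distance in kb from the first probe of each gene cluster, with black circles for the 10 genes, grey squares for other family genes and open symbols for an adjusted p over probes of 0.05 or above. Crosses at the bottom have no value and mark probes too dim to test, and Tgtp2 (3.30) lies near Tgtp1 (0.11), which did not pass.

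The gene clusters held called and uncalled neighbours. On chromosome 3 the 8 GBP probes spanned 119 kb, and the differences of the 5 tested ranged from that of the Ensembl Gbp5 probe (-0.07) to that of Gbp2 (3.71). On chromosome 5, 7 probes spanned 308 kb, of which 6 were tested, and all 6 differences were above 0, from Gbp11 (0.50) to Gbp4 (2.20). The Irgm1 locus of chromosome 11 had 11 probes over 193 kb, 7 of them tested. Of these, the probe of Gm5431 (-0.58) and a probe of 9930111J21Rik1 (-0.09) lay below 0, and the others above. There Tgtp2 differed by 3.30, while Tgtp1, which encodes a nearly identical T-cell GTPase, lay at 0.11. A second Tgtp2 probe was not well above background on any array and has no value. Whether the contrast lies in the genes or in their probes was not tested. The probe of Ifi47, an IRG gene held here in the list of type I interferon targets, lies beyond the last of these probes (chr11:48910402-48910461) and was not counted. The Igtp locus, 32.5 kb on the same chromosome, held Igtp, Irgm2 and Gm12250, all between 1.04 and 1.15 and none called. No tested probe of the genes listed at the start of Results matched a probe of another family gene at more than 28 of 60 bases. Probes of the other family genes, such as those of Tgtp1 and Tgtp2, were not compared with each other.

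Of 33 other genes listed with the families, 20 were on the array and 15 were tested. Of these, 5 were higher and 1 was lower in Nod1 +/- vessels, with a median difference of 0.50. The list also holds the atlastins Atl1, Atl2 and Atl3, which are neither GBPs nor IRGs and enter this median. The 1 lower gene was Atl1, so no GBP or IRG of the list was called lower. Gm5431 did not pass (-0.58; adjusted p = 0.0611), but all its Nod1 +/- arrays lay below all its Nod1 -/- arrays. Tgtp2, an IRG effector also called Irgb6, read 3.79, 3.26 and 3.40 against 0.73, 0.22 and -0.41, which is 3.30 (SE 0.30) or 9.88-fold (adjusted p = 0.0023). It was called under all 19 alternatives. Gbp10 was 2.27-fold higher (adjusted p = 0.0065), Gvin1, a very large interferon-inducible GTPase, 2.38-fold (adjusted p = 0.0260) and Irgq 1.66-fold (adjusted p = 0.0080). The fifth was Gbp9. Atl1, an atlastin that shapes the endoplasmic reticulum, was lower, at a difference of -0.995 on the log2 scale (adjusted p = 0.0171), whereas Gm4951 (0.33; adjusted p = 0.555) and 9930111J21Rik1 (0.12; adjusted p = 0.671) did not pass. Gbp1, Gbp8, Irgc1, Gm12185 and 9930111J21Rik2 were not well above background on any array. The shares to set beside this list and each later list are those of all genes, 7.66% called higher and 11% lower. All-gene calls also fell when a single array was left out, from 4012 to between 1459 and 3387. Without Nod1 +/- replicate 2 or Nod1 -/- replicate 2 the list had 3 calls, and 4 without Nod1 +/- replicate 1 or 3. Gvin1 lost its call without Nod1 +/- replicate 1, 2 or 3 or Nod1 -/- replicate 2 (adjusted p between 0.0511 and 0.0903), and Atl1 without replicate 2 of either genotype (0.0569 and 0.0656).

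Genes that carry the interferon signal were partly higher. Of 27 on the array 23 were tested, 8 were higher and 0 lower, with a median of 0.50. Irf1, the transcription factor that drives GBP genes, read 4.43, 4.52 and 4.56 in Nod1 +/- and 2.95, 2.93 and 2.60 in Nod1 -/- vessels, with no overlap, a difference of 1.68 (SE 0.13) or 3.20-fold (adjusted p = 0.0013). Socs3, a feedback inhibitor of cytokine receptors, was 4.55-fold higher, Stat3, an acute-phase transcription factor, 2.46-fold and the kinase gene Jak1 1.98-fold (adjusted p = 0.0018, 0.0028 and 0.0056). Irf9 (0.45; adjusted p = 0.232) and Irf3 (0.15; adjusted p = 0.394) did not pass. Of the interferon genes listed, Ifng, Ifnb1, Ifna2 and Ifna4 were not well above background on any array, while Ifna1 was so on all 6 and did not pass (-0.19; adjusted p = 0.431). The count of 8 fell to 4 without Nod1 -/- replicate 2 and to 5 without Nod1 +/- replicate 2 or Nod1 -/- replicate 1.

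**Figure D4:**
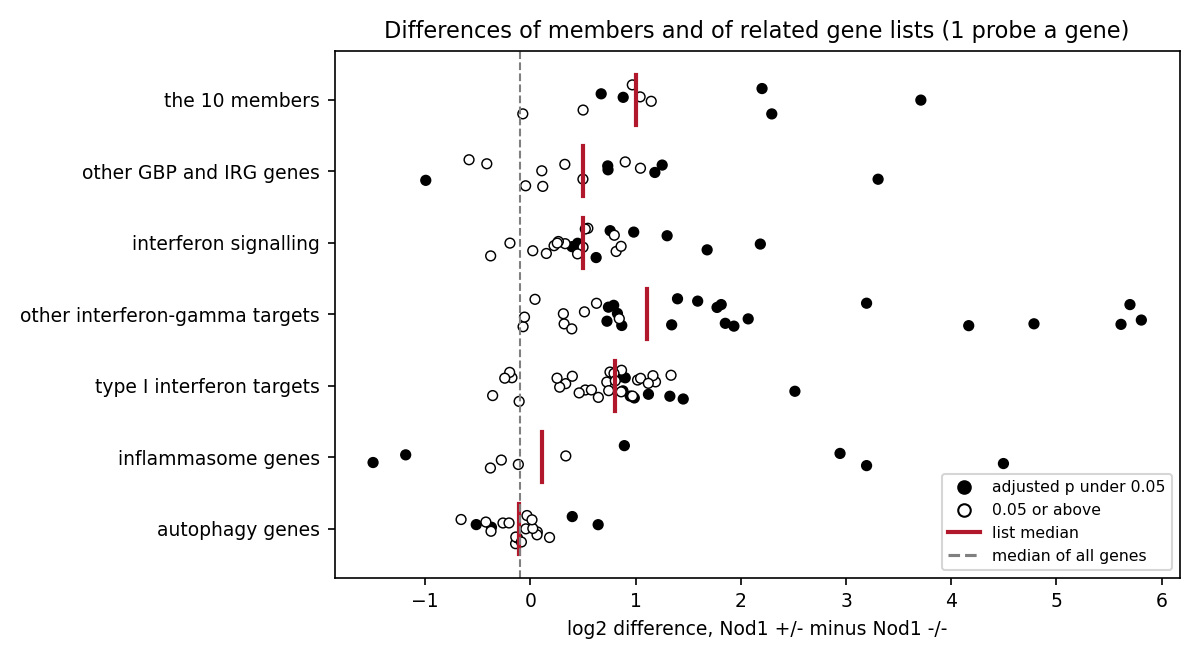
Difference in relative log2 signal, Nod1 +/- minus Nod1 -/-, of the 10 genes and of 6 related gene lists, with a point for each gene, filled where limma's adjusted p over all genes is under 0.05. Red bars mark list medians (1.01 for the 10 genes and 1.11 for the other interferon-gamma targets), and the dashed line marks the median of all genes at -0.10.

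Of 28 tested other targets of interferon-gamma, 19 were higher and 0 lower, with a median of 1.11. Casp4, which encodes caspase-11, the lipopolysaccharide-sensing protease that GBPs engage, read 4.46, 4.54 and 4.41 against 1.50, 1.33 and 1.0, which is 9.16-fold (adjusted p = 0.0004). The immunoproteasome subunit gene Psmb10 was 3.61-fold higher (adjusted p = 0.0010). The chemokine genes Ccl2 and Ccl5, which NF-kB also switches on, were higher by 5.61 and 5.81 on the log2 scale. Values for the complement inhibitor gene Serping1 (0.32; adjusted p = 0.150) and for Cxcl11 (-0.07; adjusted p = 0.712) did not pass, and Ido1 was not well above background on any array. Without any single array the count was 14 to 18.

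Of 37 tested targets of type I interferon, 9 were higher and 0 lower, with a median of 0.81. The same test called 7.66% of all genes higher and 11% lower. The strongest by p was Ifi47, which encodes another IRG, Irgd, at 4.06, 3.58 and 3.63 against 1.75, 1.22 and 0.75, with no overlap and a 5.71-fold difference (adjusted p = 0.0036). The poly-ADP-ribosyltransferase genes Parp14 (1.45) and Parp9 (0.95) and the RNA sensor gene Ddx58 (0.99) were also higher (adjusted p = 0.0121, 0.0201 and 0.0228). Isg15, an abundant ubiquitin-like target, differed by 1.16 with adjusted p = 0.105, and Oas1b by -0.11 with adjusted p = 0.515. This count ran from 1 without Nod1 -/- replicate 2 and 2 without Nod1 +/- replicate 1 to 13 without Nod1 -/- replicate 1, and was 4 without Nod1 +/- replicate 2 or 3 and 6 without Nod1 -/- replicate 3. Of the 4 genes named here as higher, Ifi47 kept its call without any single array. Parp14 lost it without Nod1 -/- replicate 2 (adjusted p = 0.0560), Parp9 without Nod1 +/- replicate 1 or 2 or Nod1 -/- replicate 2 (0.0554 to 0.0712) and Ddx58 without any Nod1 +/- array or Nod1 -/- replicate 2 (0.0501 to 0.0719).

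Downstream of GBPs, the inflammasome list had 10 tested genes, 4 higher and 2 lower, with a median of 0.11. Beside Casp4 they were Il1b, the cytokine gene, which was at least 8.95-fold higher because no Nod1 -/- array read it well above background, Gsdmd, the pore-forming gasdermin (0.89; adjusted p = 0.0087), and Mefv, which encodes pyrin (2.94; adjusted p = 0.0120). Of the 3 Nod1 -/- arrays only 1 read Mefv well above background, and over the alternatives its difference ran from 1.05 to 4.08, with the call lost without both first replicates (0.0525). "At least" sets the brighter genotype's mean against, per array of the dimmer one, the lowest signal that counts as well above background, or the probe's own signal where that is higher. Il18 was lower by 1.19 (adjusted p = 0.0201) and the receptor gene Nlrc4 at least 2.07-fold lower (adjusted p = 0.0330). With the normexp background the differences were smaller, at 1.68 for Il1b, 1.05 for Mefv and -0.46 for Nlrc4 (adjusted p = 0.0532) on the log2 scale. The abundant members Ninj1 (0.34; adjusted p = 0.077) and Pycard (-0.28; adjusted p = 0.209) did not pass. The call of Nlrc4 also ended without any single array other than Nod1 -/- replicate 3 (0.0530 to 0.113), and that of Il18 without Nod1 +/- replicate 1 or 3 or Nod1 -/- replicate 2 (0.0517 to 0.0802).

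Genes of autophagy proteins that place these GTPases on vacuoles had a median difference close to that of all genes. Of 20 tested genes 2 were higher, Trim21 (0.64; adjusted p = 0.0474) and Atg16l1 (0.40; adjusted p = 0.0486), and 2 lower, Rabgap1l (-0.52; adjusted p = 0.0215) and Gabarap (-0.37; adjusted p = 0.0391), with a median of -0.10. These counts are near the background, where 7.66% of all genes were called higher and 11% lower. Map1lc3b (-0.12) and Gabarapl1 (0.07) did not pass. None of the 20 was called with median scaling, or without the first or second replicate of either genotype. Those settings also called fewer of all 21478 genes, 1459 to 2506 against 4012. The count was 2 without Nod1 +/- replicate 3 and 1 without Nod1 -/- replicate 3.

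Array means of neutrophil markers did not overlap between the genotypes, while those of macrophage and monocyte markers did. Averaged over 16 neutrophil marker genes, of which 10 were higher, Nod1 +/- arrays lay at 1.82 to 2.35 and Nod1 -/- arrays at -0.08 to 0.09. Of the 6 that did not pass, Itgam (-0.56; adjusted p = 0.0739) and Csf3r (-0.44; adjusted p = 0.218) differed in the opposite direction. By replicate number the Nod1 -/- arrays read -0.08, 0.03 and 0.09 for the mean of the 16 markers. Replicate 3, the lowest for the 10 GTPase genes, was the highest here, by a small margin. Macrophage and monocyte markers, 14 tested with 3 lower, lay at 0.86, 1.1 and 0.83 in Nod1 +/- and 1.74, 1.43 and 0.91 in Nod1 -/- vessels. Within Nod1 -/- they and the 10 GTPase genes had the same order of arrays, while between genotypes their means differed in opposite directions. These orders rest on 3 arrays of a genotype and were not tested. No neutrophil or macrophage marker was dim on all arrays.

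T and NK cells, the main makers of interferon-gamma, were represented by 8 tested of 18 genes on the array, and 0 were called. Their mean lay at -1.10 to -0.94 in Nod1 +/- and -1.06 to -0.92 in Nod1 -/- vessels. Cd8a, Cd8b1, Klrb1c, Ncr1, Klrk1, Gzmb, Eomes and Tbx21 were not well above background on any array. Endothelial markers lay at 1.65 to 1.87 against 2.11 to 2.27, with 3 of 11 lower, and smooth-muscle markers at 4.35 to 4.64 against 4.03 to 4.48, with 1 of 10 higher. For comparison, 11% of all genes were called lower and 7.66% higher. Leaving out replicate 1 of either genotype or Nod1 -/- replicate 2 left 1 call among macrophage markers, 1 among endothelial and 0 among smooth-muscle markers, and leaving out Nod1 +/- replicate 2 left 2, 2 and 0. The part of any of these cell types in the GTPase differences was not tested.

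Outside the 10 genes, the 5 whose values followed the mean of the 10 most closely over the 6 arrays were a predicted gene listed as ENSMUST00000098144 (Pearson correlation 0.998), Cxcl9 (0.998), Sema6b (0.997), Ifi47 (0.996) and Cd274 (0.995). The first has its probe at chr7:113744818-113744877, and it differed by 1.35 (adjusted p = 0.0099). Cxcl9, an interferon-gamma-inducible chemokine, differed by 4.17 and was well above background on 1 of 3 Nod1 -/- arrays. Sema6b, a semaphorin, differed by 1.32, and Cd274, which encodes the checkpoint ligand PD-L1, by 1.40. The correlations rest on 6 arrays in 2 groups and were picked as the highest among all genes, so they describe likeness only.

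**Figure D5:**
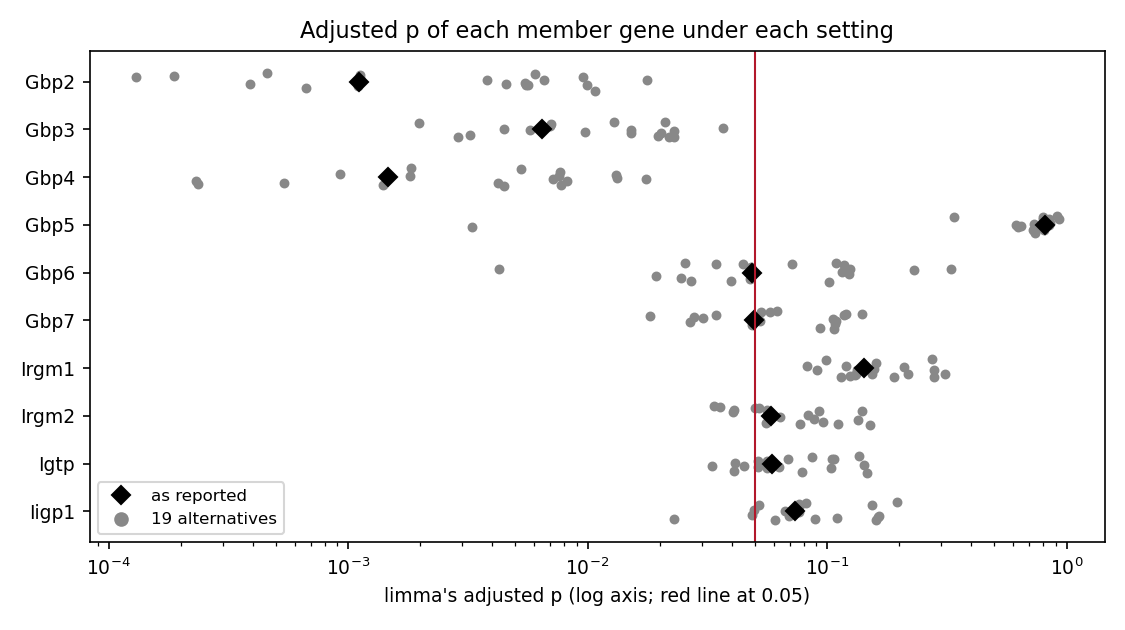
Limma's adjusted p of each of the 10 genes (log axis, red line at 0.05), with a diamond for the value reported and grey points for 19 alternative settings. Gbp2, Gbp3 and Gbp4 stay left of the line under every setting, Irgm1 stays right of it, and the others cross it.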

How the data were processed

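Scanner output of 6 arrays was used. Per the file headers, Agilent Feature Extraction (10.7.1.1) wrote each deposited spot as a background-subtracted intensity on a linear scale, although the processing notes of the submitters name 9.5.1.1. An intensity table that the authors deposited, with equal medians by a step not stated in the sources used here, served as an alternative. Probe positions are those of mm9 per the file headers. The 6 arrays shared 1 slide and 1 scan time, with Nod1 -/- replicates 1 and 2 in its first row and the rest in its second.

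Control and outlier spots were left out, and 0 spots were saturated. Signals were taken to log2, replicate spots averaged, and each array centred on its 75th percentile of non-control probes. From 55681 probes, 134 were dropped for want of a usable spot. Those well above background on 3 or more arrays (30166) were kept, and the kept probe of the highest mean stood for a gene (21478 genes). Limma 3.58.1 (lmFit, eBayes) in R 4.3.3, with the data.table package in version 1.17.8, compared genotypes, with Benjamini-Hochberg adjustment over all genes or probes. A run of the fit on simulated independent arrays checked the code alone and did not model slide row or replicate number. Plots used matplotlib 3.10.9, numpy 2.4.6 and pandas 2.3.3.

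The 10 genes and all lists were chosen with earlier results of these data known. The text names the 10 genes, Nod1, up to 4 called genes with the smallest p in each direction and up to 2 uncalled genes of the highest mean level from each pathway list, and the 5 genes most correlated with the mean of the 10. Exceptions are marked where they occur or are named only as counts of 5 or fewer, dim genes, markers or neighbours in a cluster. Alternatives were the normexp background (offset 50), quantile and median scaling, filters, the mean of a gene's probes, a robust prior with an intensity trend, weights per array, a block for the replicate number or for the slide row, Xist as a covariate, the deposited table, and left-out arrays.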

Additional observations from a re-analysis of the deposited data

How the results depend on the processing

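Against 5 called genes among the 10, 8 were called with the normexp background, with the intensity trend and robust prior, and with the replicate number as a block. There were 3 when dim probes were kept, when the slide row was blocked, with Xist signal as a covariate and without both first replicates, and 3 to 4 without any single array. Called probes among the 14 rose from 5 to 9 with normexp, with the filter of all arrays and with the intensity trend, and to 12 with the replicate block. Of 30166 kept probes, the main fit called 4810, normexp 5330, the intensity trend 5942 and the replicate block 4508. The filter of all arrays called 5271 of 25624. Over all genes the count of 4012 became 2506 with median scaling (1580 higher and 926 lower, against 1646 and 2366), 1636 without a filter, 1033 when the slide row was blocked, where only Nod1 -/- replicate 3 shares a row with Nod1 +/- arrays, 2281 with the Xist covariate, 641 without both first replicates and 1459 to 3387 without any single array. It rose to 6016 with array weights, 4744 with the intensity trend and 4271 with normexp, and was 4040 with the replicate block. Median scaling moved the median of all genes from -0.10 to 0.01. The causes were not tested.

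The pairing check set deviations of same-numbered arrays side by side and gave correlations of 0.08, 0.28 and 0.11. Arrays of unlike number gave -0.31 to 0.13, the highest between Nod1 +/- replicate 3 and Nod1 -/- replicate 1. With 3 arrays a genotype this check cannot decide if the numbers mark pairs. The main fit did not take them as pairs, and the replicate block is given as an alternative. With the replicate block, Igtp (adjusted p = 0.0410), Irgm2 (0.0338) and Iigp1 (0.0229) passed, and 1557 of 21478 genes were called higher. Across the alternatives Gbp2 lay between 3.53 and 4.08, Gbp3 between 2.03 and 2.82 and Gbp4 between 1.85 and 2.51, with adjusted p up to 0.0178, 0.0368 and 0.0176. Gbp6 lost its call in 9 and Gbp7 in 12 of 19 settings (0.328 and 0.0939 with slide row blocked). Igtp passed in 4, Irgm2 in 5, Iigp1 in 3 and Irgm1 in 0. The shared probe of Gbp6 and Gbp10 missed in 1 of 18 (0.0507). The difference of the Ensembl Gbp5 probe became positive at 0.0313 with median scaling, 0.0281 with array weights (0.0261 over probes) and 0.0681 without Nod1 +/- replicate 2. When arrays were left out, it ranged from -0.237 (without both first replicates) to 0.0879 (without Nod1 -/- replicate 3). The mean of the Ensembl and RefSeq probes of Gbp5 gave 1.37.

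Precision is limited by 3 arrays a genotype on 1 slide. Genes dim in 1 genotype carry only a bound, and the second Gbp7 probe, dim in both, has no value.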
